A study of Mus musculus with 18 samples.

Results

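The comparison described here is the interaction of genotype and phenylephrine (PE) in mouse cardiac ventricles at day 25, that is, the PE change in SRFHKO hearts minus the PE change in control hearts. It was taken over the 12 arrays whose titles give day 25, out of 18 in the series, with 3 arrays in each of 4 groups. Control mice were SRF-flex2neo littermates, SRFHKO mice were the mutants for serum response factor (SRF), and both genotypes had been given 0.7 mg of tamoxifen on 3 days, so that every group carries the drug. In the groups labelled +PE, osmotic minipumps gave PE at a dose of 80 mg/kg/day from the 10th day after the first tamoxifen dose until day 25. All mice were male, aged 10 weeks, of a strain the labels give as CR7BL6, and each array is titled as a biological replicate of 1 heart. The sources used here name neither the promoter that drives the recombinase nor a sham pump for the groups without PE. The other 6 arrays, of day 8 (2 control and 4 SRFHKO), had no PE and added only to the estimate of the spread.

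SRF is a transcription factor that binds CArG boxes in the promoters of actin, contractile and immediate early growth-response genes. Its partners, the myocardin family and the ternary complex factors, tie it to actin dynamics and to MAP kinase signalling. PE is an agonist of alpha-1 adrenergic receptors, which act through Gq and protein kinase C and in cardiac muscle cells set off hypertrophic growth. That growth is known for the return of genes of the fetal heart, such as the beta myosin heavy chain and the natriuretic peptides.

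An interaction asks of each gene whether PE moved it by the same amount in both genotypes. Values are log2(scaled signal + 2), where the signal of each array had been scaled to a common trimmed mean, and changes are differences on that scale, which understates the changes of dim genes. A gene passed, or was called, where its p from a linear model fitted with limma over all genes, adjusted by Benjamini-Hochberg, lay below 0.05. Before scaling, the trimmed mean signal was between 46.6 and 75.3 on the 6 control arrays of day 25 and between 71.2 and 85.4 on the 6 SRFHKO arrays, and it was at least 110.2 on the day 8 arrays. Brightness itself had an interaction of -0.10 on the log2 scale (exact permutation, two-sided p = 0.771, adjusted over 4 quality measures 0.812). That of the 3' to 5' signal ratio of Gapdh was 0.0531 (adjusted p = 0.554, exact permutation). The regroupings exchanged arrays between genotypes too, and brightness differed between genotypes, which widens the permuted range. A high p from them therefore does not show that an interaction was absent. The 17 measured cardiomyocyte markers had a median interaction of -0.03, and their summed scaled signal was between 135432 and 165796 on control arrays and between 116526 and 140206 on SRFHKO arrays. The Srf probe set gave log2 values between 7.37 and 7.66 in control hearts and between 7.16 and 7.63 in SRFHKO hearts without PE; the sources used here do not say whether its probes lie in the deleted part, so it does not check the labels. In bulk ventricle, fewer cells of a type and less RNA per cell cannot be told apart.

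Of 12610 genes tested, 3 passed for the interaction: Myh7 was lower, and Sprr1a and Prkab2 were higher, than the sum of the separate changes would give. That is 0.0238% of the genes (0.0159% higher and 0.00793% lower). Without adjustment 948 genes had p below 0.05, or 7.52%, of which 545 were positive (4.32%) and 403 negative (3.2%). The median 95% interval of an interaction, before adjustment, reached 0.60 to either side on the log2 scale. A gene whose PE change differed between genotypes by less than that was thus mostly not resolved. A call after adjustment mostly needed a larger difference: Gpr22, with an interaction of -2.14, did not pass (limma, adjusted p = 0.237). The count of 3 therefore does not mean that differences above 0.60 were mostly detectable. For comparison, PE alone was called for 4 genes in control hearts (0.0317%, all higher; limma called 0 lower, 0%) and for 37 in SRFHKO hearts (0.293%), 23 higher (0.182%) and 14 lower (0.111%). Without adjustment 1328 genes had p below 0.05 in control (10.5%, 559 higher and 769 lower) and 1380 in SRFHKO hearts (10.9%, 713 higher and 667 lower). SRFHKO hearts differed from control hearts in 295 genes without PE (2.34%) and in 206 with PE (1.63%). The 3 interaction calls rest on few arrays. With limma and 1 array left out, the count was 0 without control replicate 2, any of the 3 control +PE replicates, SRFHKO replicate 2 or SRFHKO +PE replicate 2 (857 to 982 genes at an unadjusted p below 0.05), 1 without SRFHKO replicate 1, SRFHKO replicate 3 or SRFHKO +PE replicate 3, and 7 without SRFHKO +PE replicate 1.

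**Figure D1:**
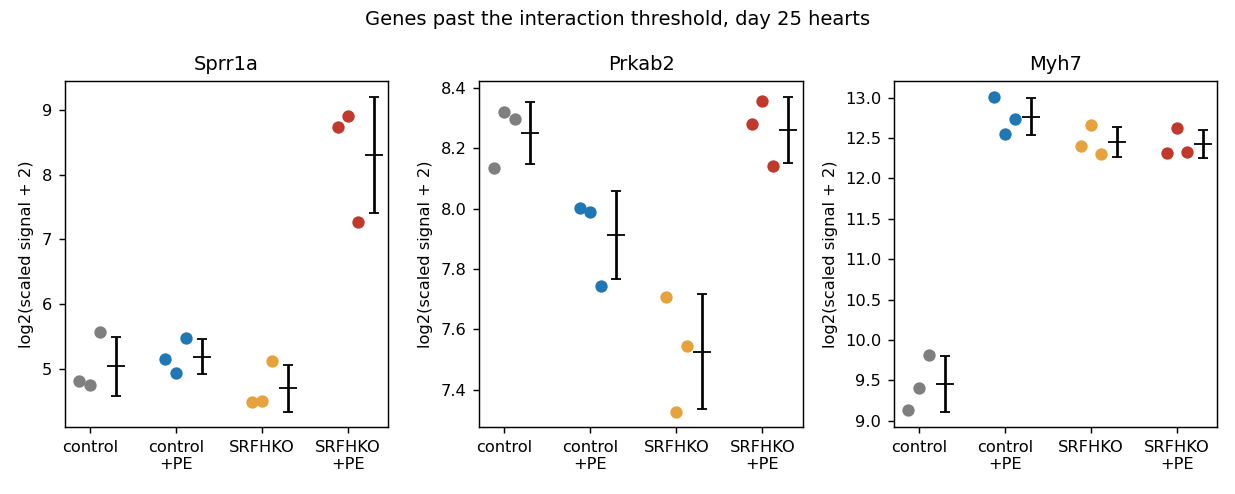
Log2(scaled signal + 2) of Sprr1a, Prkab2 and Myh7 on each of the 12 arrays of day 25 (points, 3 per group) with the group mean and SD beside them; the vertical axes do not start at 0 and differ between panels. Sprr1a is high on the 3 SRFHKO +PE arrays alone, Prkab2 is lowest on the 3 SRFHKO arrays without PE, and Myh7 is low on the 3 control arrays without PE alone.

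Myh7 encodes the beta myosin heavy chain, the slow motor protein of the fetal ventricle that adult mouse ventricle largely replaces with the alpha chain. In untreated control hearts its log2 values were 9.14, 9.41 and 9.82, and in control hearts with PE they were 13.01, 12.55 and 12.74. SRFHKO hearts gave 12.40, 12.66 and 12.30 without PE and 12.31, 12.62 and 12.33 with PE. The untreated controls thus stood apart below the other 9 arrays, whose 3 groups overlapped. PE raised Myh7 by 3.31 ± 0.38 (SE, 3 arrays against 3) in control hearts, a 9.93-fold rise (adjusted p = 0.000758), and changed it by -0.03 ± 0.38 in SRFHKO hearts (adjusted p = 0.99). The interaction was -3.34 ± 0.54 (adjusted p = 0.0278, 95% interval -4.47 to -2.21). The deletion without PE was itself accompanied by a level 3.00 ± 0.38 above control (adjusted p = 0.000562), and untreated SRFHKO hearts lay 0.31 ± 0.38 below control hearts with PE, a difference that did not pass. Myh7 therefore falls in the class of genes already shifted before PE: the change that PE brought in control hearts was missing in SRFHKO hearts, where the level without PE was already near that of the treated controls.

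The day 8 arrays add a limit to this reading. Myh7 was 11.89 and 11.94 in the 2 control hearts of day 8, above every untreated control of day 25, and between 10.75 and 13.002 in the 4 SRFHKO hearts of day 8. That wide spread enters the error above: with the 12 arrays of day 25 fitted alone the interaction had an SE of 0.229 and an adjusted p of 7.71e-06. In the fit over all arrays it kept its call only without control replicate 3 or SRFHKO +PE replicate 1, and without any of the other 10 arrays the adjusted p was between 0.0588 and 0.142. With quantile normalization it was 0.129. Myh7 was read by 1 probe set. Its paralog Myh6, the alpha chain, had log2 values between 13.23 and 13.84 on all 12 arrays and an interaction of 0.04 (95% interval -0.25 to 0.32).

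Sprr1a, a small proline-rich protein of the cornified envelope that is known in heart muscle as a stress-induced gene downstream of gp130 cytokines, showed the opposite arrangement. Its log2 values were 4.82, 4.75 and 5.57 in control hearts and 5.16, 4.94 and 5.48 with PE. They were 4.49, 4.50 and 5.12 in SRFHKO hearts and 8.74, 8.90 and 7.27 in SRFHKO hearts with PE. Every SRFHKO +PE array lay above all the others, and the other 3 groups overlapped. The day 8 arrays, between 3.79 and 4.60, were no higher than those groups. PE raised Sprr1a by 3.59 ± 0.36 in SRFHKO hearts, 12.1-fold (adjusted p = 9.24e-05), against 0.15 ± 0.36 in control hearts (adjusted p = 0.915). The interaction was 3.45 ± 0.51 (adjusted p = 0.0271, 95% interval 2.38 to 4.51), and no difference between genotypes was called without PE (-0.34, adjusted p = 0.653). By the rule of size it is an exaggerated response, one that SRFHKO hearts alone showed past the threshold. It missed the threshold without control replicate 2, any control +PE replicate, SRFHKO replicates 1 or 2, or SRFHKO +PE replicate 2, with adjusted p between 0.0519 and 0.0948, and passed without any of the other 5.

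The promoter of Sprr1a is shown because its letters can be set beside this response. The table of RefSeq start sites (GRCm38.p6) has 1 start for it, and the 250 bases before that start lie at chr3:92485882-92486131 on the minus strand. They read as follows, with capitals marking the AP-1 motif.
Sprr1a: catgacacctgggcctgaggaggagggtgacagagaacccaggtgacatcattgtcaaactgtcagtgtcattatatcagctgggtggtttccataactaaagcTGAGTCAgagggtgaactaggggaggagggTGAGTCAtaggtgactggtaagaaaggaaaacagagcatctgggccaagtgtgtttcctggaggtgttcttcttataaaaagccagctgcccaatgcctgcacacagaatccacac
The motif, searched as TGANTCA on both strands, begins 146 and 116 bases before the start. Of 32851 promoter windows of 300 bases, 7.81% held it at least once and 0.46% held 2 or more. The window also held TATAAA, 43 bases before the start (13.6% of all windows held those letters), but neither the CArG box (1.63% of windows) nor CATTCC, the M-CAT motif (14.7%). The AP-1, M-CAT and TATA motifs were chosen after the values were seen, and a match is a description of letters. Myh7 has start sites 77 bases apart, and the window of 1 of them was searched. None of the 4 motifs was found there, which says only that these letters are not in that window.

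Prkab2 encodes the beta 2 subunit of AMP-activated protein kinase, the energy sensor whose beta subunits hold the complex together and bind glycogen. Control hearts gave log2 values of 8.13, 8.32 and 8.30, and 8.00, 7.99 and 7.74 with PE. SRFHKO hearts gave 7.71, 7.33 and 7.54, and 8.28, 8.36 and 8.14 with PE. Untreated SRFHKO hearts were thus below all other arrays, and treated SRFHKO hearts overlapped the untreated controls. Without PE, Prkab2 was 0.72 lower in SRFHKO than in control hearts (adjusted p = 0.00518). PE raised it by 0.73 ± 0.12 in SRFHKO hearts, 1.66-fold (adjusted p = 0.0167), while its change in control hearts was -0.34 ± 0.12 (adjusted p = 0.315). The interaction was 1.07 ± 0.17 (adjusted p = 0.0278, 95% interval 0.71 to 1.43), and with PE the genotypes differed by 0.35 (adjusted p = 0.164), so it is classed as brought back. The other 2 probe sets of the gene had interactions of 0.76 ± 0.19 and 0.59 ± 0.27, of the same sign and not past the threshold. It missed the threshold with arrays scaled to the median (0.0658) and with the 12 arrays alone (0.124), and it passed without control replicate 1, SRFHKO replicate 1 or SRFHKO +PE replicate 1 but missed without any of the other 9 arrays (0.0546 to 0.135).

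Among the windows searched for the 3 genes, 1 for each, that of Prkab2 alone held a CArG box. The box begins 30 bases after the Prkab2 start on the plus strand of chromosome 3. The 30 bases at chr3:97658232-97658261 (GRCm38.p6, RefSeq) are printed to show it, with the box in capitals.
Prkab2: gccttgtagCCATTTTAGGaggaaacccgg

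Next in order of p, and not past the threshold, were 7 genes, and in all 7 the PE changes had opposite signs in the 2 genotypes. Gpr22, an orphan G protein-coupled receptor of heart and brain, had log2 values of 6.66, 5.92 and 6.27 in control hearts and 7.80, 7.11 and 7.22 with PE. In SRFHKO hearts it had 7.80, 7.03 and 8.14, and 7.18, 6.06 and 6.58 with PE. Treated controls and untreated mutants were thus the high groups and overlapped each other, and 1 treated SRFHKO array reached into their range. Its interaction was -2.14 ± 0.42 (adjusted p = 0.237), made of 1.09 in control and -1.05 in SRFHKO hearts, and a second probe set gave -1.98. Itga9, an integrin alpha subunit, had the reverse order: 7.09, 6.79 and 7.55 in control hearts, 6.76, 6.89 and 6.42 with PE, 6.28, 6.23 and 6.36 in SRFHKO hearts, and 7.05, 7.22 and 6.93 with PE. Untreated SRFHKO hearts were below all others for Itga9, with an interaction of 1.23 ± 0.25 (adjusted p = 0.24).

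Dusp5, a nuclear phosphatase that switches off ERK, had the largest size of these 7, at -2.92 ± 0.60 (adjusted p = 0.24). Its values were 3.34, 2.68 and 2.66 in control hearts and 4.51, 4.20 and 4.96 with PE, and 4.84, 4.69 and 3.41 in SRFHKO hearts and 2.51, 3.59 and 3.08 with PE. The gene is dim: the 3 untreated control arrays, 1 SRFHKO array and 2 SRFHKO +PE arrays were under 3.58, the limit of the filter on low values, so these differences are poorly measured. Its promoter is shown because it held 2 CArG boxes, which adjoin. Of all windows 0.0183% held 2 or more, whether adjoining or not. The 60 bases at chr19:53529045-53529104 (plus strand, GRCm38.p6, RefSeq) hold both in capitals, beginning 82 and 72 bases before the start.
Dusp5: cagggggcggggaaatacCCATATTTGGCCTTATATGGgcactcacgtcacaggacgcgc
The remaining 4 were Galnt18, an enzyme of O-glycosylation (1.17, adjusted p = 0.309), Gmnn, which encodes the replication licensing inhibitor geminin (-0.71, adjusted p = 0.374), Anks3 (2.37, adjusted p = 0.374) and Socs2, a suppressor of cytokine and growth hormone signalling (-0.95, adjusted p = 0.375). For Socs2 a second probe set gave -0.96 and 3 others lay near 0, and for Anks3 another probe set gave -0.17.

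**Figure D2:**
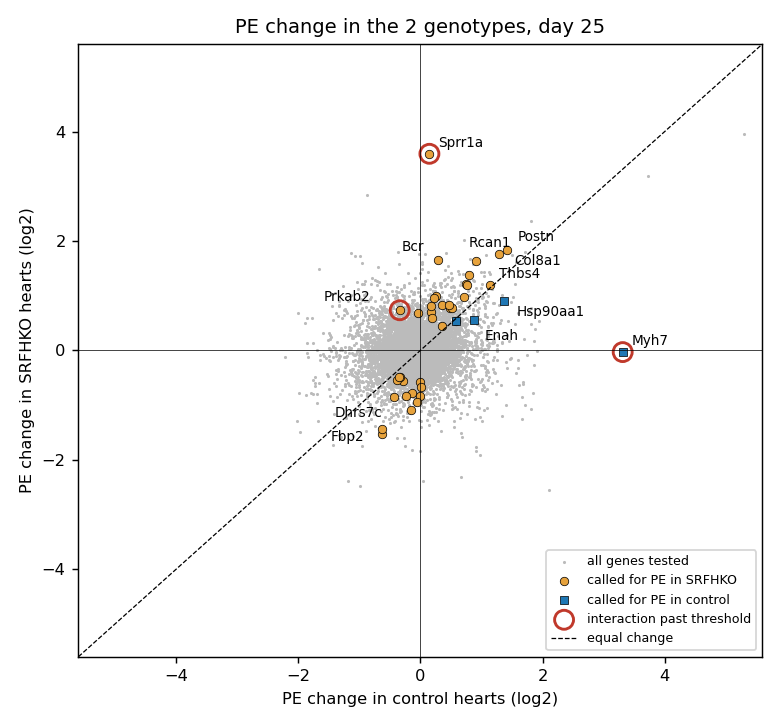
PE change in SRFHKO hearts (vertical, log2) against PE change in control hearts (horizontal, log2) for the 12610 genes tested, with genes past the threshold in either genotype marked and the 3 interaction calls ringed. Sprr1a lies near the vertical axis at 3.59, Myh7 on the horizontal axis at 3.31, and most genes called in SRFHKO hearts lie between the vertical axis and the line of equal change.

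To describe genes blocked, exaggerated or already shifted, each was classed by size alone. Genes with an SRFHKO change under 50% of the control change were already shifted where the deletion alone had moved them the same way by at least 50% of that size, and blocked otherwise. The reverse case was brought back or exaggerated, changes of opposite sign and similar size were opposed, and the rest graded. Of the 3 called genes, 1 was already shifted, 1 brought back and 1 exaggerated, and none was blocked. Among the 100 genes of smallest interaction p, none beyond those 3 past the threshold, 56 were opposed, 18 exaggerated, 17 already shifted, 7 brought back and 2 blocked. Over all 12610 genes the shares were 17.8% opposed, 20.2% exaggerated, 19.0% already shifted, 8.03% brought back, 11.3% blocked and 23.7% graded. The interaction is itself made of the 2 PE changes, so a small p favours opposed genes by construction and nothing is read from that share.

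Of the 100 genes of smallest p, 2 were blocked. Adam12, a disintegrin metalloprotease, had 4.28, 5.16 and 4.19 in control hearts and 1.64, 3.04 and 3.29 with PE, all 3 treated arrays below the filter limit, against 4.06, 4.23 and 4.60 in SRFHKO hearts and 4.89, 4.70 and 4.80 with PE. Its interaction was 2.39 ± 0.63 (adjusted p = 0.437). Tbxa2r, the thromboxane receptor, had a PE change of -0.60 in control and 0.22 in SRFHKO hearts (interaction 0.83, adjusted p = 0.501). In both genes the low group was the treated controls, and neither passed.

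Beside Myh7, the already shifted genes of smallest p had PE changes in control hearts and deletion differences without PE of like size, none of their interactions passing. Kpna2, a nuclear import receptor, had 8.95, 8.58 and 8.58 in control hearts, 9.74, 9.23 and 9.45 with PE, 9.65, 9.32 and 9.72 in SRFHKO hearts and 8.97, 9.70 and 9.39 with PE. Its PE change was 0.77 in control and -0.21 in SRFHKO hearts, and its deletion difference without PE 0.86 (adjusted p = 0.0177). Irf5, a transcription factor of innate immunity, had 1.47 and -0.15, with a deletion difference of 1.27 (adjusted p = 0.0292). Its other probe set, of similar brightness, ran the other way, with PE changes of -0.55 and 0.70, a deletion difference of -1.10 and an interaction of 1.25 against -1.63, so the class of Irf5 depends on the probe set. The deletion difference and the control PE change share the untreated control arrays, so a low value there raises both.

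Brought back, Dusp1, a phosphatase of MAP kinases and an immediate early gene, had log2 values of 10.06, 10.07 and 9.76 in control hearts and 9.92, 9.82 and 9.72 with PE. In SRFHKO hearts it had 10.64, 10.47 and 10.63, and 9.64, 9.77 and 10.03 with PE. Untreated SRFHKO hearts were above all other arrays, by 0.62 over control (adjusted p = 0.0212), and PE lowered Dusp1 there (change -0.77, adjusted p = 0.0186) to a level -0.01 from that of treated controls. Its interaction was -0.63 ± 0.19 (adjusted p = 0.501). Stbd1, a glycogen-binding protein, was brought back too, with an interaction of 3.71 ± 1.15 (adjusted p = 0.501). It had 6.19, 6.49 and 5.91 in control hearts, 6.63, 5.59 and 3.75 with PE, 3.22, 2.80 and 2.22 in SRFHKO hearts and 3.01, 6.98 and 6.77 with PE. The 3 untreated SRFHKO arrays and 1 treated one were below the filter limit, and the treated SRFHKO hearts spread over nearly the whole range.

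Most genes that PE moved past the threshold in one genotype had a change of the same sign, mostly smaller, in the other. The 2 PE changes share no array. Of the 37 genes called in SRFHKO hearts, 34 had the same sign in control hearts, 21 of them also with p below 0.05 before adjustment, and 19 had a control change under 50% of the SRFHKO change, with a median ratio of 0.433. Over all genes 55.6% had the same sign and 59.8% were under that share. In the reverse direction, 3 of the 4 genes called in control hearts had the same sign in SRFHKO hearts, and Myh7 was the 1 under 50%. Both lists were chosen for a large change in the genotype that called them. Of the 100 genes of smallest p in each genotype, a list length set after these counts were seen, 85 from SRFHKO and 80 from control hearts kept their sign in the other, and 63 and 64 were under 50% there. Across all genes the 2 PE changes had a Pearson r of 0.154 and a Spearman coefficient of 0.142, given as a description of genes measured on jointly scaled arrays. So more genes were called for PE in SRFHKO than in control hearts. For 35 of those 37, though, no difference between genotypes in the PE change was called.

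These counts also turn on single arrays. Genes called for PE in SRFHKO hearts numbered 1 without SRFHKO +PE replicate 2, 83 without SRFHKO +PE replicate 1, and 7, 5 and 2 without SRFHKO replicates 1, 2 and 3. Those under 50% in control hearts then numbered 1, 54, 5, 2 and 1, and 32 without control replicate 3. In control hearts the count of 4 became 7 without control replicate 1, 1 without control replicate 2 or control +PE replicates 1 or 3, 2 without SRFHKO replicate 3 and 9 without SRFHKO +PE replicate 1. All 37 genes kept their sign in each of the 12 fits with 1 array left out, and 1 of them was called in every one.

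**Figure D3:**
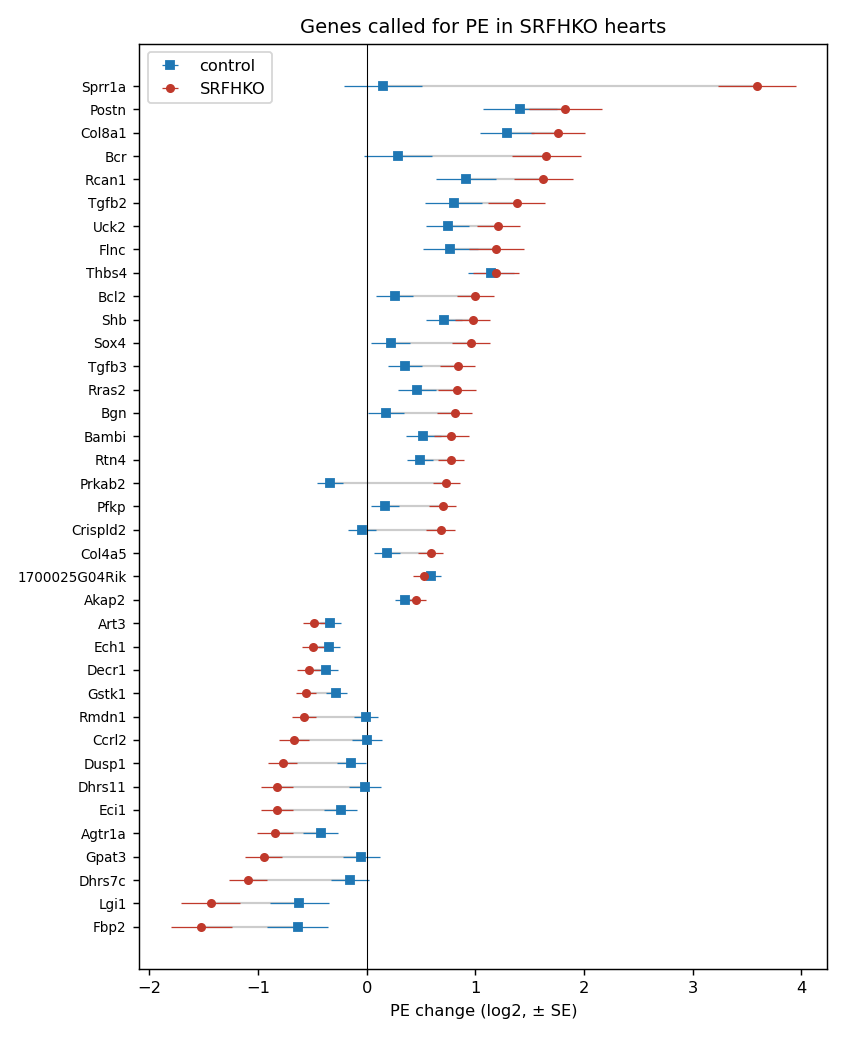
PE change (log2, horizontal, with SE) of the 37 genes called in SRFHKO hearts, ordered by that change, in control (squares) and SRFHKO hearts (circles). Circles lie farther from 0 than squares for 36 of the 37 genes, the exception being 1700025G04Rik.

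Some genes had positive PE changes in both genotypes, and the interactions of those named here did not pass. That does not show equal changes, since differences under 0.60 were mostly not resolved. 1700025G04Rik was called in both, at 0.59 ± 0.10 in control (adjusted p = 0.0459) and 0.53 ± 0.10 in SRFHKO hearts (adjusted p = 0.026), with 95% bounds on the interaction of -0.36 and 0.24. Its dimmer probe sets gave 0.58 and 0.48 in control and 0.40 and 0.14 in SRFHKO hearts, none past the threshold. With 1 array left out, its call held in 2 of 12 fits for control and 7 of 12 for SRFHKO hearts. Thbs4, a matricellular thrombospondin of the stressed heart, had 7.01, 6.95 and 6.59 in control hearts, 8.35, 7.65 and 7.99 with PE, 6.36, 6.47 and 6.60 in SRFHKO hearts and 7.78, 7.80 and 7.41 with PE. Treated hearts lay above untreated hearts of the same genotype throughout, with PE changes of 1.14 (adjusted p = 0.0676) and 1.19 (adjusted p = 0.0219). Hsp90aa1, a cytosolic chaperone, and Enah, an actin regulator of the Ena/VASP family, were called in control hearts alone by the probe set used. Hsp90aa1 rose by 1.36 ± 0.21 there (adjusted p = 0.0201) against a change of 0.90 ± 0.21 in SRFHKO hearts (adjusted p = 0.0708). Its interaction of -0.46 ± 0.29 did not pass, so that no difference between genotypes in the PE change was shown. Enah rose by 0.88 ± 0.14 (adjusted p = 0.028) against a change of 0.55 ± 0.14 (adjusted p = 0.105). With every probe set tested, another of the 6 probe sets of Enah passed in both genotypes, at 1.40 in control (adjusted p = 0.00524) and 1.13 in SRFHKO hearts (adjusted p = 0.0251).

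Among the genes that PE raised in SRFHKO hearts were matrix genes and growth factors of the TGF-beta family. By the adjusted test, PE raised 3 of 36 measured extracellular matrix genes in SRFHKO hearts: Col8a1, Postn and Bgn (0.182% of all genes). It raised none in control hearts (0.0317% of all genes). At an unadjusted p below 0.05, 16 were higher in SRFHKO and 4 in control hearts (5.65% and 4.43% of all genes), and 3 had a positive interaction (4.32% of all genes). The list's median PE change was 0.54 in SRFHKO and 0.15 in control hearts, beside -0.01 and -0.03 over all genes, and its median interaction was 0.28 beside 0.03. It stayed between 0.17 and 0.50 with any 1 array left out. Col8a1, a short-chain network collagen, had 7.56, 7.45 and 6.64 in control hearts, 8.53, 8.64 and 8.37 with PE, 7.66, 7.42 and 7.95 in SRFHKO hearts and 9.92, 9.51 and 8.89 with PE. Treated arrays were above untreated ones in both genotypes, by 1.29 (adjusted p = 0.0676) and 1.76 ± 0.25 (adjusted p = 0.00651). The dimmer second probe set of Col8a1 gave 0.30 and 1.14, an interaction of 0.84 beside 0.47 for the first, neither past the threshold. Postn, the matricellular protein periostin of activated fibroblasts, had PE changes of 1.42 (adjusted p = 0.191) and 1.83 ± 0.34 (adjusted p = 0.0246).

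Bgn and Eln had interactions of smaller p. Bgn, the proteoglycan biglycan, had 10.48, 10.57 and 10.06 in control hearts, 10.57, 10.58 and 10.49 with PE, 10.08, 10.05 and 10.18 in SRFHKO hearts and 10.995, 11.11 and 10.63 with PE. The treated SRFHKO hearts were above all others, the PE change being 0.81 ± 0.16 there (adjusted p = 0.0412) and 0.18 in control hearts, with an interaction of 0.63 (adjusted p = 0.58). The other 2 probe sets of Bgn, nearly as bright, gave control changes of 0.33 and 0.43 and SRFHKO changes of 0.80 and 0.85. Their interactions were 0.47 and 0.42, so the size of the control change depends on the probe set. Eln, elastin, had the smallest interaction p of the list (1.13 ± 0.34, adjusted p = 0.501), from -0.72 in control and 0.42 in SRFHKO hearts. Beside these, the summed scaled signal of 14 fibroblast markers, several of which are matrix genes too, was between 12772 and 16637 in control, 15689 and 16914 in control +PE, 11870 and 15619 in SRFHKO and 15138 and 19846 in SRFHKO +PE hearts. Their median interaction was 0.17, and their part in the matrix result was not tested.

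Of 18 measured TGF-beta and CCN growth factors, PE raised Tgfb2 and Tgfb3 in SRFHKO hearts, and none in control hearts past the threshold. Over all genes the shares called higher were 0.182% in SRFHKO and 0.0317% in control hearts. At an unadjusted p below 0.05, 6 were higher in SRFHKO and 6 in control hearts (5.65% and 4.43% of all genes). In each genotype 13 of the 18 lay above 0. Tgfb2 had 6.42, 7.09 and 6.02 in control hearts, 7.57, 7.08 and 7.29 with PE, 6.57, 6.94 and 6.92 in SRFHKO hearts and 7.98, 8.55 and 8.05 with PE. Its groups overlapped in control hearts and not in SRFHKO hearts, with PE changes of 0.80 and 1.38 ± 0.26 (adjusted p = 0.0254) and an interaction of 0.58 (adjusted p = 0.768). Tgfb3 had PE changes of 0.35 and 0.84 (adjusted p = 0.0254). The connective tissue growth factor gene Ccn2 had 0.32 and 1.19, neither past the threshold, and an interaction of 0.87 (adjusted p = 0.672). The list's median PE change was 0.21 in control and 0.36 in SRFHKO hearts, with a median interaction of 0.08. Bambi, a decoy receptor that restrains TGF-beta signalling and was no member of that list, also rose in SRFHKO hearts (0.78, adjusted p = 0.0464, against 0.52 in control hearts).

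Several signalling genes were called for PE in SRFHKO hearts alone, but no interaction of those named here passed. Rcan1, an inhibitor of calcineurin and a reporter of its activity, had 8.98, 9.31 and 8.60 in control hearts, 10.01, 9.73 and 9.89 with PE, 9.32, 9.78 and 9.27 in SRFHKO hearts and 10.26, 11.82 and 11.16 with PE. The groups did not overlap in either genotype (14.6% of all genes did not in control and 17% in SRFHKO hearts). Its PE changes were 0.91 (adjusted p = 0.231) and 1.63 ± 0.27 (adjusted p = 0.0167), with an interaction of 0.71 (adjusted p = 0.713). Rcan1 was the 1 gene called for PE among 17 calcineurin and NFAT genes, in SRFHKO hearts (0.182% of all genes called higher there). The median interaction of those 17 was -0.01. Bcr had 6.24, 5.91 and 6.19 in control hearts, 6.33, 6.30 and 6.57 with PE, 5.90, 6.88 and 6.14 in SRFHKO hearts and 7.32, 9.03 and 7.53 with PE. Treated SRFHKO hearts stood above the rest for Bcr, 1 of them far above, with a PE change of 1.65 ± 0.32 (adjusted p = 0.026) against 0.29 and an interaction of 1.36 (adjusted p = 0.528). Its other 2 probe sets gave interactions of 0.51 and 1.33. Bcl2, an inhibitor of apoptosis, rose by 0.997 (adjusted p = 0.0167) against a change of 0.26 in control hearts, and Agtr1a, the angiotensin II receptor, fell by 0.84 (adjusted p = 0.031) against a change of -0.42. Their interactions were 0.74 and -0.42 (adjusted p = 0.526 and 0.717).

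The stress and gp130 cytokine genes had mostly positive PE changes in both genotypes and no common sign of the interaction. Of 19 measured, 18 lay above 0 with PE in control and 15 in SRFHKO hearts, and 6 in each were higher at an unadjusted p below 0.05 (4.43% and 5.65% of all genes). For the interaction 10 lay above 0 and Sprr1a alone passed. PE raised 3 (Sprr1a, Uck2 and Thbs4) past the threshold in SRFHKO hearts (0.182% of all genes) and none in control hearts (0.0317%). The list's median interaction was 0.02, with PE medians of 0.36 in control and 0.30 in SRFHKO hearts. Uck2, a kinase of pyrimidine salvage, had 6.52, 6.41 and 6.30 in control hearts, 7.23, 6.90 and 7.33 with PE, 6.70, 6.41 and 6.44 in SRFHKO hearts and 7.42, 8.16 and 7.61 with PE. Treated arrays lay above untreated ones in both genotypes, by 0.74 (adjusted p = 0.203) and 1.21 ± 0.20 (adjusted p = 0.0167), and the second brightest of its probe sets gave 0.39 and 0.46, neither past the threshold. Timp1, an inhibitor of matrix metalloproteases, had PE changes of 1.10 and 0.996 with wide errors (SE 0.58 each) and an interaction of -0.10.

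**Figure D4:**
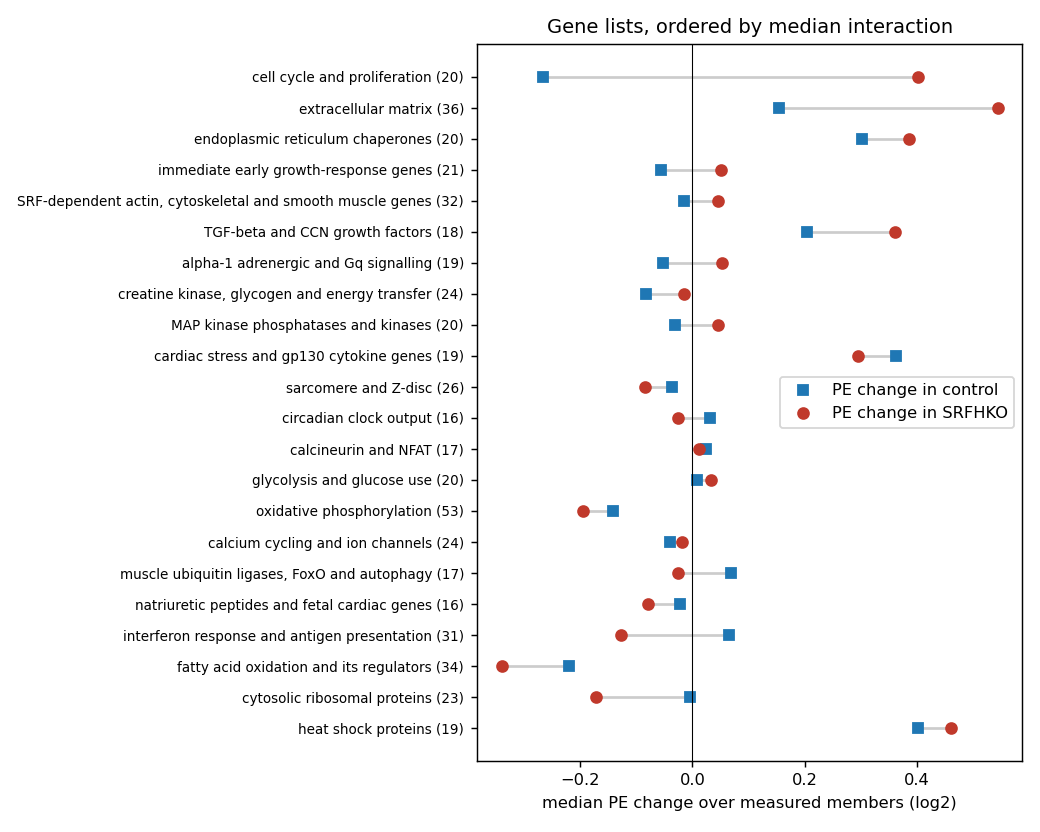
Median PE change (log2) of the measured members of 22 gene lists in control (squares) and SRFHKO hearts (circles), ordered by median interaction, with the number of measured members in brackets. The cell cycle list has medians of -0.27 and 0.40 and the matrix list 0.15 and 0.54, while the heat shock list lies at 0.40 and 0.46 and the SRF-dependent list near 0 in both.

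Genes of fatty acid breakdown had negative median PE changes in both genotypes. PE lowered Eci1 and Decr1 past the threshold, 2 of 34 measured genes of fatty acid oxidation and its regulators, in SRFHKO hearts. Of all genes, 0.111% were called lower there. None of the 34 passed as lower in control hearts (0% of all genes). At an unadjusted p below 0.05, 21 were lower in SRFHKO and 9 in control hearts (5.29% and 6.1% of all genes). The median change was -0.34 in SRFHKO and -0.22 in control hearts, and the median interaction -0.13. No member passed for the interaction (limma), 11 lay above 0, and 5 were negative and 1 positive at an unadjusted p below 0.05 (3.2% and 4.32% of all genes). Eci1, an isomerase for unsaturated fatty acids, had 11.77, 11.65 and 11.99 in control hearts, 11.64, 11.47 and 11.58 with PE, 11.75, 11.48 and 11.62 in SRFHKO hearts and 10.93, 10.48 and 10.97 with PE. Treated SRFHKO hearts were below all other arrays, with a PE change of -0.83 ± 0.15 (adjusted p = 0.0238) against -0.24 in control hearts and an interaction of -0.59 (adjusted p = 0.58). Ppara, the nuclear receptor that governs this pathway, had PE changes of 0.03 and -0.72, neither past the threshold, and an interaction of -0.75 (adjusted p = 0.613). Decr1, a dienoyl-CoA reductase, had -0.38 and -0.53 (adjusted p = 0.0399).

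Other metabolic genes were called for PE in SRFHKO hearts too. The interactions of Fbp2, Dhrs7c, Gpat3, Pfkp and Lgi1, between -0.94 and 0.53, did not pass (adjusted p 0.437 to 0.664). Fbp2, the muscle fructose bisphosphatase, had 6.55, 7.47 and 7.63 in control hearts, 6.74, 6.46 and 6.55 with PE, 7.48, 7.27 and 6.73 in SRFHKO hearts and 5.84, 5.48 and 5.59 with PE. It fell in SRFHKO hearts, where treated and untreated arrays did not overlap (change -1.52, adjusted p = 0.0246), while in control hearts the arrays overlapped (change -0.64, adjusted p = 0.435). Dhrs7c, a reductase of striated muscle sarcoplasmic reticulum, had a PE change of -1.09 in SRFHKO hearts (adjusted p = 0.0167) against -0.15, and Gpat3, an enzyme of glycerolipid synthesis, -0.95 (adjusted p = 0.0235) against -0.05. Pfkp, a phosphofructokinase of glycolysis, rose by 0.70 (adjusted p = 0.0219) against a change of 0.17, while its 2 dimmer probe sets gave 0.15 and 0.06 in SRFHKO hearts. Lgi1, a secreted protein, had a change of -1.44 in SRFHKO hearts (adjusted p = 0.0254) against -0.62. Of 53 oxidative phosphorylation genes none passed in either genotype (limma, with 23 lower at an unadjusted p below 0.05 in SRFHKO and 12 in control hearts, beside 5.29% and 6.1% of all genes), and their median interaction was -0.05.

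Of the other marker genes of hypertrophy none passed for the interaction beside Myh7 and Sprr1a. Nppa, the atrial natriuretic peptide, had 12.995, 12.89 and 13.41 in control hearts, 13.28, 13.02 and 13.29 with PE, 12.95, 12.997 and 12.87 in SRFHKO hearts and 13.28, 13.17 and 12.93 with PE. Treated and untreated arrays overlapped in both genotypes, with an interaction of 0.09 (95% interval -0.39 to 0.58). Nppb, the B-type natriuretic peptide, had 11.49, 11.48 and 11.71 in control hearts, 12.29, 12.56 and 12.17 with PE, 11.42, 11.58 and 11.52 in SRFHKO hearts and 12.52, 12.70 and 12.54 with PE. Treated arrays lay above untreated ones in both genotypes, by 0.78 and 1.08, neither past the threshold in the fit over all arrays, and the interaction was 0.30 (95% interval -0.54 to 1.13). Of the 16 measured natriuretic and fetal cardiac genes Myh7 alone passed, and the median interaction was -0.09.

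Acta1, the skeletal alpha actin that the fetal and the hypertrophic heart express, was set apart by genotype. It had 10.32, 9.81 and 10.55 in control hearts, 11.05, 11.46 and 11.50 with PE, 8.90, 8.29 and 9.19 in SRFHKO hearts and 9.57, 9.11 and 8.50 with PE. Treated controls were above untreated ones, whereas the SRFHKO groups overlapped and lay below every control array. The PE changes were 1.11 (adjusted p = 0.261) and 0.27, the interaction -0.84 ± 0.51 (adjusted p = 0.751), and the genotype difference -1.43 without PE (adjusted p = 0.0408) and -2.28 with PE (adjusted p = 0.00255). By size Acta1 is blocked, without a call. Ankrd1, a stretch-responsive ankyrin repeat protein, and Fhl1, a LIM protein of stretch sensing, were already shifted by size, with PE changes of 0.55 and 0.38 in control hearts, 0.09 and 0.05 in SRFHKO hearts, and interactions of -0.45 and -0.33 that did not pass. Nmrk2, a kinase of NAD synthesis from nicotinamide riboside, had 5.97, 5.45 and 6.09 in control hearts, 7.94, 7.82 and 7.57 with PE, 10.56, 9.75 and 10.16 in SRFHKO hearts and 10.66, 10.79 and 10.64 with PE. Its 4 groups formed steps, with a PE change of 1.94 (adjusted p = 0.0676) in control and 0.54 in SRFHKO hearts, a deletion difference of 4.32 without PE (adjusted p = 5.56e-06) and an interaction of -1.40 ± 0.51 (adjusted p = 0.586).

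Of the genes SRF is known to control, Ckm, Itgb1bp2 and Kcnip2 differed between genotypes with and without PE and had no interaction past the threshold. Ckm, the muscle creatine kinase, had an interaction of 0.07 (95% interval -0.59 to 0.72) beside genotype differences of -2.06 without PE (adjusted p = 0.000134) and -1.99 with PE (adjusted p = 0.000194). Itgb1bp2, which encodes the stretch-sensing chaperone melusin, had an interaction of -0.32 beside -1.68 and -2.01. Kcnip2, whose product joins the potassium channels of early repolarization, had -0.06 beside -1.87 and -1.93. The cardiac and smooth muscle actins Actc1 and Acta2 had interactions of -0.05 and -0.30, and no genotype difference of theirs passed with or without PE. Of 32 measured SRF-dependent actin, cytoskeletal and smooth muscle genes, none passed for the interaction (limma, with 1 higher and 1 lower at an unadjusted p below 0.05, Des at 0.47 and Fhl2 at -0.53, beside 4.32% and 3.2% of all genes), and the median was 0.09.

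The genes closest to the PE signal showed few calls. Of 19 measured alpha-1 adrenergic and Gq signalling genes none passed for the interaction (limma, with 3 higher and 1 lower at an unadjusted p below 0.05, beside 4.32% and 3.2% of all genes). Rgs2, a brake on Gq, had 8.62, 9.57 and 7.90 in control hearts, 8.91, 8.52 and 8.71 with PE, 9.37, 9.81 and 9.95 in SRFHKO hearts and 8.69, 7.90 and 8.65 with PE. In SRFHKO hearts the treated arrays were below the untreated ones and in control hearts the groups overlapped, with changes of -1.30 (adjusted p = 0.0705) and 0.02 and an interaction of -1.31 (adjusted p = 0.526). With every probe set tested, another 2 of its probe sets passed for PE in SRFHKO hearts, at -1.49 (adjusted p = 0.0265) and -1.51 (adjusted p = 0.0251). Prkca, protein kinase C alpha, had -0.48 in control and 0.41 in SRFHKO hearts, an interaction of 0.89 (adjusted p = 0.501), which its other 2 probe sets did not share (-0.08 and -1.71). Of 21 immediate early genes none passed either (limma, 1 higher and 1 lower at an unadjusted p below 0.05, beside the same shares). Of 20 MAP kinase phosphatases and kinases none passed (limma, 3 higher and 3 lower at an unadjusted p below 0.05, beside 4.32% and 3.2% of all genes). Among those 20 the smallest interaction p after Dusp5 was that of Map2k3, a kinase of the p38 pathway (0.53, adjusted p = 0.425).

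Heat shock genes had positive median PE changes in both genotypes. Of 19 heat shock proteins, 11 in control and 9 in SRFHKO hearts were higher at an unadjusted p below 0.05 (4.43% and 5.65% of all genes), with medians of 0.40 and 0.46. Hsp90aa1 passed in control hearts, where 0.0317% of all genes were called higher. The median interaction was -0.18 but took the other sign, 0.08, with 1 array left out. Hspa1a and Hspa1b, inducible heat shock proteins named after their values were seen, had PE changes of 3.73 and 5.29 in control and 3.19 and 3.96 in SRFHKO hearts, with interactions of -0.54 ± 1.34 and -1.34 ± 1.45. The errors of these 2 nearly identical genes are wide and neither change was called. Of 20 endoplasmic reticulum chaperones none passed for PE in either genotype (limma, with 3 and 4 higher at an unadjusted p below 0.05, beside 4.43% and 5.65% of all genes), with medians of 0.30 and 0.39.

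Cell cycle genes had the largest median interaction of the 22 pathway lists, 0.73 over 20 measured members of 29 listed, from -0.27 in control and 0.40 in SRFHKO hearts. None passed (limma), and 3 had a positive interaction at an unadjusted p below 0.05 (4.32% of all genes). The median stayed between 0.44 and 1.03 with any 1 array left out and was 0.41 at its lowest under the other settings. Ccna2, cyclin A2, had 5.20, 4.20 and 4.64 in control hearts, 3.37, 4.58 and 4.00 with PE, 2.45, 4.05 and 3.13 in SRFHKO hearts and 4.17, 5.22 and 4.83 with PE. In this dim gene 1 control +PE and 2 SRFHKO arrays were below the filter limit, and the interaction was 2.23 ± 0.73 (adjusted p = 0.526). Of the 29 listed genes 28 are on the array, and those too dim for the filter have no value here.

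Interferon and antigen presentation genes had no common direction: of 31 measured, 6 had a positive and 6 a negative interaction at an unadjusted p below 0.05 (4.32% and 3.2% of all genes), and none passed (limma). Their median of -0.09 ranged between -0.68 and 0.43 with 1 array left out. Cd74, the invariant chain of MHC class II, had 10.00, 9.81 and 9.13 in control hearts, 9.17, 9.12 and 7.52 with PE, 8.04, 8.87 and 8.28 in SRFHKO hearts and 9.43, 8.94 and 8.77 with PE, an interaction of 1.69 ± 0.54 (adjusted p = 0.526). Of 23 cytosolic ribosomal protein genes 2 had a positive interaction, the median was -0.16, and none passed (limma, 3 lower at an unadjusted p below 0.05, beside 3.2% of all genes). Rpl7 had -0.45 ± 0.13 (adjusted p = 0.501). The remaining lists, of calcium cycling and ion channels, sarcomere and Z-disc, creatine kinase and glycogen, glycolysis, muscle ubiquitin ligases and clock output genes, had median interactions between -0.08 and 0.05, and of these only Myh7 and Prkab2 passed. Within the channels, Cacnb2, a subunit of the L-type calcium channel, was already shifted by size, with a PE change of 0.59 in control and -0.02 in SRFHKO hearts and a deletion difference of 0.64 (adjusted p = 0.0267), while its interaction of -0.60 did not pass (adjusted p = 0.558).

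Among markers of other cell types no gene passed for the interaction (limma). The 15 endothelial markers had a median of 0.22, the 12 smooth muscle and pericyte markers 0.21 and the 20 macrophage and monocyte markers 0.01. The 8 measured atrial cardiomyocyte markers had a median of 0.47, with 7 above 0 and a range of 0.13 to 0.79 with 1 array left out. Their summed signal was between 15101 and 22532 in control, 16138 and 19664 in control +PE, 13307 and 20934 in SRFHKO and 14792 and 29317 in SRFHKO +PE hearts, and their part in the ventricular results was not tested. Cldn5, the endothelial tight junction protein claudin 5, had 7.26, 7.11 and 7.13 in control hearts, 6.85, 6.66 and 6.64 with PE, 5.85, 6.80 and 6.41 in SRFHKO hearts and 6.52, 6.995 and 6.93 with PE (interaction 0.91, adjusted p = 0.501). Untreated controls were above every other array for Cldn5. The summed endothelial signal was between 10627 and 11064 in control, 9114 and 10643 in control +PE, 9360 and 10333 in SRFHKO and 8694 and 9984 in SRFHKO +PE hearts, and each of these ranges overlapped that of the other treatment in its genotype. Neutrophil (3 measured), mast cell (3) and lung epithelium (4) markers had medians of -1.49, 0.69 and 0.87 from summed signals of at most 275, 106 and 130. These lists are short and dim, and the mast cell median was -0.27 at its lowest under other settings. Their part in the results above was not tested.

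**Figure D5:**
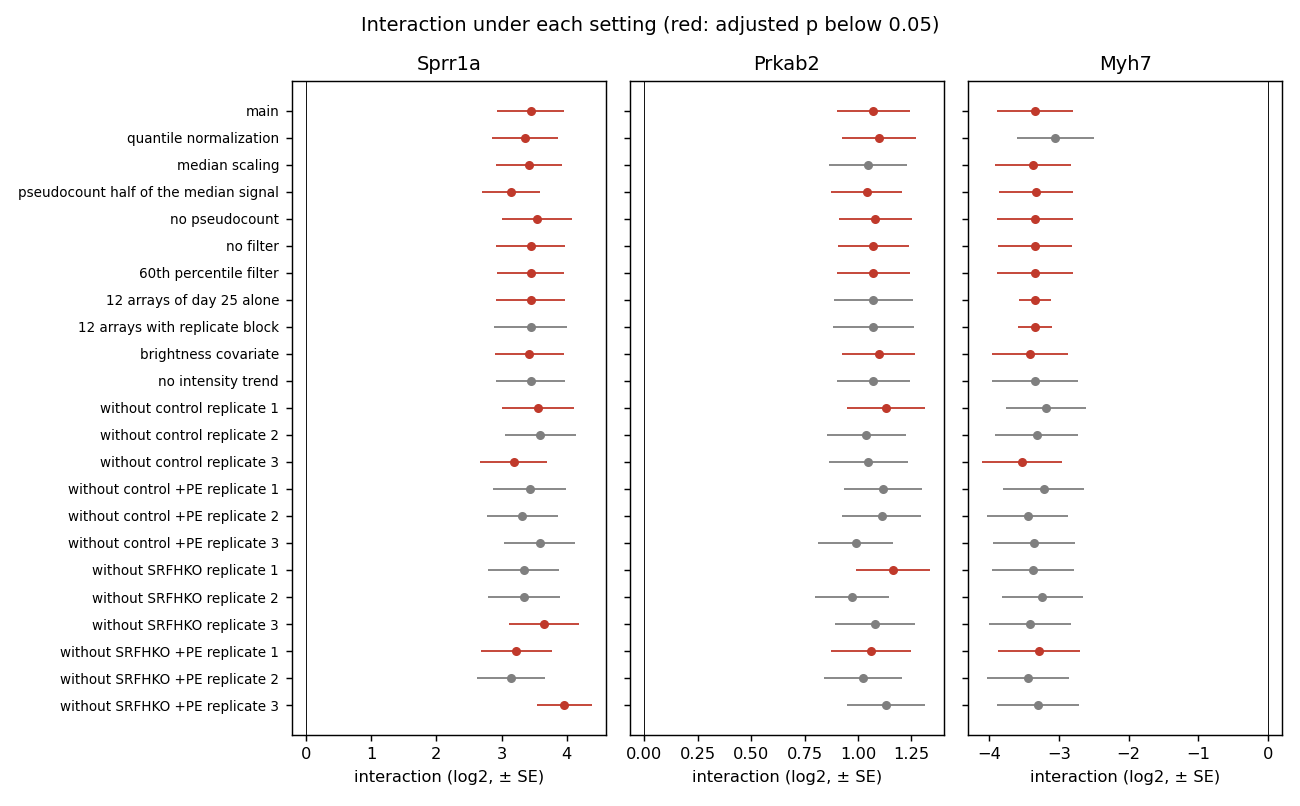
Interaction (log2, with SE) of Sprr1a, Prkab2 and Myh7 under each processing setting and with each array left out, red where the adjusted p was below 0.05 and grey where not. The sizes stay between 3.15 and 3.96 for Sprr1a, 0.97 and 1.16 for Prkab2 and -3.52 and -3.05 for Myh7, while the calls come and go.

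The 3 called interactions kept their size and sign under every setting tried, and their calls did not. Across the 10 other settings and the 12 fits with 1 array left out, the interaction of Sprr1a was between 3.15 and 3.96, that of Prkab2 between 0.97 and 1.16 and that of Myh7 between -3.52 and -3.05. With the intensity trend left out of the fit none of the 3 passed (adjusted p 0.128 for Sprr1a and Prkab2 and 0.237 for Myh7). For Sprr1a the array left out that gave the largest value was SRFHKO +PE replicate 3, the lowest of the treated mutants, without which the adjusted p was 0.00038.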

How the data were processed

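Ventricular RNA had been extracted with Trizol, labelled with biotin and hybridised to Affymetrix arrays, per the labels' protocols. The deposited intensity of 45101 probe sets came from GCOS, the scanner software, per the submitters' processing notes; the sources used here give no version, algorithm or scaling for it. Each array was scaled to a common trimmed mean (2% cut from each tail) of 90.6, 2 was added and log2 taken. Left out were 64 control probe sets and those with a mean over 18 arrays below the 40th percentile (log2 3.58, scaled signal 9.96), leaving 27000. Probe sets were named by the platform's annotation, with symbols brought up to date by gene ID from RefSeq (GRCm38.p6); 34945 probe sets had 1 symbol, 932 several and 9160 none. Each of 12610 genes was read from its brightest probe set (_x_at only where there was no other). limma 3.58.1 in R 4.3.3 fitted a mean per group over 18 arrays with an intensity trend; p-values are two-sided, adjusted by Benjamini-Hochberg, threshold 0.05. The number of arrays limits the precision. Array quality was compared by exact permutation over 18480 distinct regroupings of the 12 arrays.

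Replicates are called biological in the titles, with no word on litters or extraction days. Same-numbered arrays were not paired in the fit: their deviations correlated between -0.0837 and 0.0899 over 18 pairs. In each of the 4 day 25 groups, though, replicate 2 was the brightest array before scaling and replicate 3 the dimmest. The Gapdh 3' to 5' ratio was lowest on replicate 2 in each group. Whether arrays of the same number were handled together was not tested. With the replicate number as a block on the 12 arrays, Sprr1a and Prkab2 were not called. Prkab2 was not called on those 12 arrays without the block either. No 2 arrays were identical. The steps were tested on simulated data.

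Named are genes past the interaction threshold and the 10 of smallest p; the 6 largest rises and falls called for PE in each genotype; 18 core genes; up to 4 members per list by interaction p and each called member; up to 4 per class. Bcl2, Bambi, Hspa1a and Hspa1b were named after their values were seen. The comparison, the gene lists and the rule were chosen with earlier results of these data known.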

Additional observations from a re-analysis of the deposited data

Results flagged for a closer look

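The difference between genotypes in the PE change was itself tested and passed for 3 genes. Myh7 had an interaction of -3.34 on the log2 scale, PE raising it in control hearts alone. Sprr1a had 3.45, PE raising it in SRFHKO hearts alone. Prkab2 had 1.07, PE raising it in SRFHKO hearts and not in control hearts. No test for single outlying values was run within the groups of 3 arrays. Leaving out 1 array at a time moved the count of called interactions between 0 and 7.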

How the results depend on the processing

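The count of 3 interactions stayed at 2 or 3 under quantile normalization, median scaling, other pseudocounts, no filter, a 60th percentile filter, a brightness covariate and the 12 arrays alone (where Tspyl5 replaced Prkab2), was 1 with every probe set tested, 0 without the intensity trend (926 at an unadjusted p below 0.05) and between 0 and 7 with 1 array left out. Genes called for PE in control hearts (4) numbered 2 with quantile normalization, 7 with the 12 arrays alone, 1 without the trend and 1 to 9 with 1 array left out. Those called for PE in SRFHKO hearts (37) numbered 24 with the brightness covariate, 1 without the trend and 1 to 83 with 1 array left out. For the deletion without PE (295) the counts were 196 with the 12 arrays alone, 39 with the brightness covariate, 147 without the trend, 451 with every probe set tested and 56 to 397 with 1 array left out; for the deletion with PE (206) they were 56 with the brightness covariate, 73 without the trend and 47 to 223. Of genes called in control hearts, those under 50% in SRFHKO hearts (1) numbered 2 with no filter, with the 12 arrays alone and with the replicate block, 3 with the brightness covariate and 1 to 5 with 1 array left out; of those called in SRFHKO hearts (19), 11 with the replicate block, 1 without the trend and 1 to 54. The cause was not tested. With the replicate number as a block on the 12 arrays the interaction count was 2 (Myh7 and Gpr22, 1 of them shared), PE in control hearts 4 and PE in SRFHKO hearts 21; 7 of 12 arrays correlated best with their own number. Of 185 genes followed, 22 changed the sign of an interaction that was never called in the fits compared. Dim signal limits Dusp5, Stbd1, Adam12 and the cell cycle genes.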
